A study of Mus musculus with 168 samples.

Results

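This comparison set the cortex of Q20 knock-in mice at 10 months of age against the cortex of Q20 mice at 2 months, with 8 libraries at each age. The members were the columns of the deposited cortex count table whose sample titles give the Q20 heterozygote at those ages, 16 of the 168 libraries of the series. Q20 mice carry 1 copy of the Huntington's disease gene Htt with a nominal 20 CAG repeats knocked in, beside a normal copy, on a C57BL/6 background. This is the shortest repeat of the series, which also holds 5 longer alleles and wild-type (WT) mice at 2, 6 and 10 months. At 10 months there were 4 females and 4 males, and at 2 months likewise. The cage mates of these mice are labelled as Q20 heterozygotes too, and no treatment is labelled. The WT mice used beside them carry no knock-in allele, had Q20 cage mates and numbered 8 at each age, again 4 females and 4 males. The labels name neither the part of the cortex that was taken nor whether a library came from 1 animal, so p-values measure the spread between these libraries.

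Both ages are adult. Between them the mouse cortex is known to go on making myelin slowly while its pool of oligodendrocyte precursors thins, to lose the last of the growth and migration programmes of young neurons, and to mature its inhibitory and synaptic machinery. The tissue borders the striatum, the basal forebrain and the olfactory bulb in front, the hippocampus and the choroid plexus beneath, and the meninges on its surface, each of which has genes of its own that the cortex itself uses little.

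The 10-month libraries held 31271785 to 43744187 estimated counts in genes, and the 2-month libraries held 29402367 to 34457950. Levels are CPM, counts scaled to the size of the library with TMM factors, which rest on the genes that most libraries share, and where 3 CPM values stand for a group they are the lowest, the median and the highest of its 8 libraries. The level of a gene is therefore relative to all other RNA in the library, and in bulk tissue fewer cells of a type and less RNA per cell cannot be told apart. Changes are log2 changes of 10 over 2 months with their standard error, from a quasi-likelihood test of edgeR with sex as a covariate, and a gene was called when its adjusted p (Benjamini-Hochberg over all genes tested) was under 0.05. Median correlations of a library with the 7 others of its age were 0.989 to 0.992 at 10 months and 0.99 to 0.992 at 2 months, and 10-month male 2 was the lowest. Age and library series cannot be told apart, since the library numbers at 10 months (300143 to 300192) and at 2 months (299974 to 300018) do not overlap and the library names carry another code for each age and sex. The WT libraries share these codes, with numbers of 300147 to 300194 at 10 months and 299983 to 300026 at 2 months. Htt, the gene that carries the knock-in, had 147, 208 and 214 CPM at 10 months, against 176, 209.7 and 231 CPM at 2 months. The change in Htt was -0.06 ± 0.07 (adjusted p = 0.6), with overlapping groups, and it was not called.

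The tissue had the defining transcripts of cortex at both ages. Slc17a7, the vesicular glutamate transporter of cortical excitatory neurons, had 942, 1008 and 1068 CPM at 10 months, against 874, 930.4 and 1032 CPM at 2 months. Neurod6, a transcription factor of cortical and hippocampal pyramidal cells, had 66.3, 74.9 and 95.1 CPM at 10 months, against 43.4, 52.99 and 61.5 CPM at 2 months. Both were well expressed at each age.

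Of 16473 genes tested, 1326 (8.05%) were higher and 1643 (9.97%) were lower at 10 months. Most changes were small: the median absolute log2 change of the called genes was 0.25, and 36 called genes were at least 2-fold higher against 171 at least 2-fold lower. The median over all genes tested was -0.0002. The ranges of the 8 libraries at each age did not overlap for 797 genes (4.84%), with 10 months higher for 309 (1.88% of genes tested) and lower for 488 (2.96%). The plot of change against level shows that the falls reached further than the rises at low levels.

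**Figure D1:**
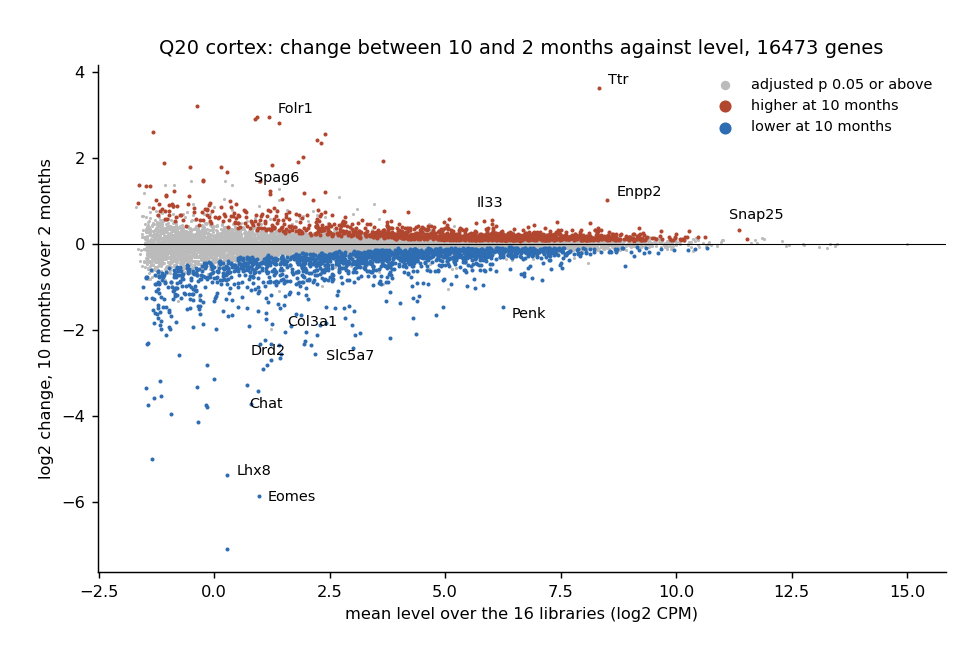
Each point is 1 of 16473 genes, with its mean level over the 16 libraries (log2 CPM) on the x axis and its log2 change, 10 over 2 months, on the y axis. The 1326 genes called higher are red, the 1643 called lower are blue, and genes not called are grey. Named points on the lower side include Lhx8 at -5.38, Chat at -3.43 and Penk at -1.48, and the upper extreme is Ttr at 3.62.

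Among the 12 rising genes with the smallest p, 2 are best known from glia. Abca8a, a lipid transporter of the ABC family that oligodendrocytes express, had 13.4, 16.2 and 17.4 CPM at 10 months, against 9.10, 9.32 and 10.2 CPM at 2 months. The change was 0.75 ± 0.05 (adjusted p = 6.3e-09). Il33, a nuclear cytokine that oligodendrocytes and astrocytes hold, had 64.4, 67.1 and 74.4 CPM at 10 months, against 41.2, 47.5 and 51.6 CPM at 2 months and changed by 0.53 ± 0.04 (adjusted p = 4.8e-08). No 10-month library overlapped a 2-month one for either gene.

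Others of this set come from neurons or from less studied transcripts. Dkk3, a secreted relative of the Wnt inhibitors that is abundant in cortical excitatory neurons, had 312, 334 and 352 CPM at 10 months, against 216, 236 and 252 CPM at 2 months, a change of 0.49 ± 0.04 (adjusted p = 8.0e-09). Spag6, a protein of the sperm and ciliary axoneme, had 4.52, 5.30 and 6.004 CPM at 10 months, against 1.83, 2.28 and 2.70 CPM at 2 months and changed by 1.18 ± 0.09 (adjusted p = 7.3e-09), a 2.26-fold rise. Gatm, which makes the precursor of creatine, had 133, 136 and 149 CPM at 10 months, against 90.4, 102 and 109 CPM at 2 months and changed by 0.44 ± 0.04 (adjusted p = 1.7e-07). Kazald1, a secreted protein of the IGF binding protein family, had 5.49, 5.81 and 6.33 CPM at 10 months, against 3.30, 3.77 and 4.13 CPM at 2 months and changed by 0.65 ± 0.06 (adjusted p = 3.3e-07). These 4 genes had every 10-month library above every 2-month library.

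Alox8, a lipoxygenase, had 5.37, 6.04 and 7.17 CPM at 10 months, against 3.42, 3.68 and 4.40 CPM at 2 months and rose by 0.70 ± 0.07 (adjusted p = 6.2e-07). Plxdc1, a transmembrane protein first known from tumour endothelium, had 35.3, 37.1 and 38.4 CPM at 10 months, against 23.6, 26.3 and 28.1 CPM at 2 months and rose by 0.50 ± 0.04 (adjusted p = 2.8e-08). The groups did not overlap for either. Fam196b, a little studied gene among the falling ones, had 1.07, 1.31 and 1.84 CPM at 10 months, against 4.37, 5.02 and 5.67 CPM at 2 months, and the change was -1.91 ± 0.10 (adjusted p = 4.6e-10), a 3.75-fold fall with no overlap.

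Most tested markers of striatal projection neurons fell. Meis2 and Pbx3, transcription factors of striatal and bulb neurons, and Pcp4l1 were among the 12 falling genes with the smallest p, with log2 changes of -0.53, -1.32 and -0.58. Of 21 tested markers of striatal projection neurons, the principal neurons of the striatum, 19 fell and 1 (Foxp1, a transcription factor shared with cortex, 0.10) rose, with a median change of -1.19, and the ranges of 17 did not overlap. The summed level of these markers was 647.6, 682 and 764 CPM at 10 months, against 984, 1059 and 1272 CPM at 2 months. Every 10-month library lay below every 2-month library. Penk (chr4:4133531-4138819, minus strand; gene positions are from GENCODE M21 on GRCm38), the precursor of enkephalin, had 27.2, 36.9 and 54.8 CPM at 10 months, against 96.9, 109 and 136 CPM at 2 months, a change of -1.48 ± 0.13 (adjusted p = 2.3e-06). The 2 groups were far apart.

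Ppp1r1b, which encodes the dopamine-regulated phosphatase inhibitor DARPP-32, had 71.8, 74.7 and 83.7 CPM at 10 months, against 104, 125 and 151 CPM at 2 months and fell by 0.70 ± 0.06 (adjusted p = 1.1e-07). Adcy5, the main striatal adenylyl cyclase, had 110.8, 125 and 145 CPM at 10 months, against 171, 184 and 219.6 CPM at 2 months and fell by 0.59 ± 0.05 (adjusted p = 1.8e-07). Tac1, the precursor of substance P, had 8.75, 11.1 and 17.8 CPM at 10 months, against 26.0, 29.7 and 35.1 CPM at 2 months and fell by 1.32 ± 0.13 (adjusted p = 2.6e-06). These 3 genes are used in cortex too, and their levels at 10 months stayed well above 0. Drd2, the D2 dopamine receptor, and Adora2a, the adenosine receptor of the same neurons, were named after their values were seen. Drd2 had 0.478, 1.17 and 2.63 CPM at 10 months, against 4.99, 6.21 and 9.02 CPM at 2 months and changed by -2.25 ± 0.26 (adjusted p = 1.6e-05), while Adora2a had 1.799, 2.39 and 6.94 CPM at 10 months, against 9.91, 13.2 and 19.1 CPM at 2 months and changed by -2.13 ± 0.27 (adjusted p = 5.9e-05). No library overlapped for either receptor. Isl1, a transcription factor of striatal and basal forebrain neurons, had 0.0299, 0.174 and 1.01 CPM at 10 months, against 2.43, 2.85 and 3.70 CPM at 2 months, a change of -3.28 ± 0.42 (adjusted p = 4.8e-05).

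Markers of the cholinergic neurons of the basal forebrain, a list added after values were seen, were lower too. All 7 tested members fell and none overlapped, with a median change of -3.73 and a summed level of 2.52, 3.43 and 5.90 CPM at 10 months, against 20.2, 22.7 and 32.2 CPM at 2 months. Slc5a7 (chr17:54273590-54299034, minus strand), the choline transporter that feeds acetylcholine synthesis, had 0.949, 1.14 and 2.19 CPM at 10 months, against 6.83, 7.68 and 9.32 CPM at 2 months, a change of -2.57 ± 0.14 (adjusted p = 4.6e-10). Chat (chr14:32408203-32465989, minus strand), the enzyme that makes acetylcholine, had 0.0896, 0.370 and 0.474 CPM at 10 months, against 2.37, 3.27 and 5.41 CPM at 2 months, a change of -3.43 ± 0.21 (adjusted p = 1.5e-09). Lhx8, the transcription factor that specifies these neurons, had 0, 0.0268 and 0.183 CPM at 10 months, against 1.64, 2.18 and 2.91 CPM at 2 months. At least 1 of the 10-month libraries held no count of Lhx8, so its fitted change of -5.38 depends on the prior count of the fit and is given only for its sign.

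Markers of the olfactory bulb, the other list added after values were seen, fell likewise. All 7 tested members were called lower, with a median change of -2.18 and a summed level of 9.66, 12.98 and 20.9 CPM at 10 months, against 31.0, 64.5 and 89.6 CPM at 2 months. Th, the enzyme of dopamine synthesis that marks a class of bulb interneurons, had 1.16, 1.44 and 1.66 CPM at 10 months, against 3.06, 7.62 and 10.9 CPM at 2 months, a change of -2.36 ± 0.19 (adjusted p = 1.4e-07). Cdhr1, a cadherin of mitral and tufted cells, had 2.63, 4.98 and 6.69 CPM at 10 months, against 10.4, 23.7 and 33.7 CPM at 2 months, a change of -2.18 ± 0.24 (adjusted p = 2.3e-05). Eomes, a transcription factor of mitral cells and their precursors, had 0, 0.0458 and 0.208 CPM at 10 months, against 1.41, 4.08 and 6.28 CPM at 2 months, with 10-month libraries at 0. Omp, the marker of olfactory sensory neurons, is not on that list. It had 0.162, 0.307 and 1.98 CPM at 10 months, against 0.676, 3.91 and 7.51 CPM at 2 months and changed by -2.91 ± 0.57 (adjusted p = 0.0027), and 10-month female 1 lay inside the range of the 2-month libraries.

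Among 12 tested thalamic markers 6 fell and 1 (Rora, 0.15) rose. Calb2, the calcium-binding protein calretinin of thalamic, bulb and some cortical neurons, had 7.95, 9.03 and 11.1 CPM at 10 months, against 23.2, 29.9 and 39.0 CPM at 2 months, a change of -1.73 ± 0.10 (adjusted p = 1.5e-09). Gbx2, a transcription factor of the thalamus, had 0, 0.0445 and 0.148 CPM at 10 months, against 0.421, 0.556 and 0.753 CPM at 2 months, with at least 1 10-month library at 0. The summed level of the thalamic list was 333, 366 and 399.7 CPM at 10 months, against 372, 387 and 415 CPM at 2 months, and the groups overlapped. Nts, the neuropeptide neurotensin, stood on the hippocampal list and had 0.591, 1.12 and 2.10 CPM at 10 months, against 5.04, 6.20 and 8.13 CPM at 2 months, a change of -2.34 ± 0.16 (adjusted p = 6.3e-09), while that list had 4 members higher and 3 lower of 12.

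Leaving out any 1 of the 16 libraries gave 19 striatal and 7 cholinergic markers called lower each time, though the cholinergic list was chosen with these values seen.

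**Figure D2:**
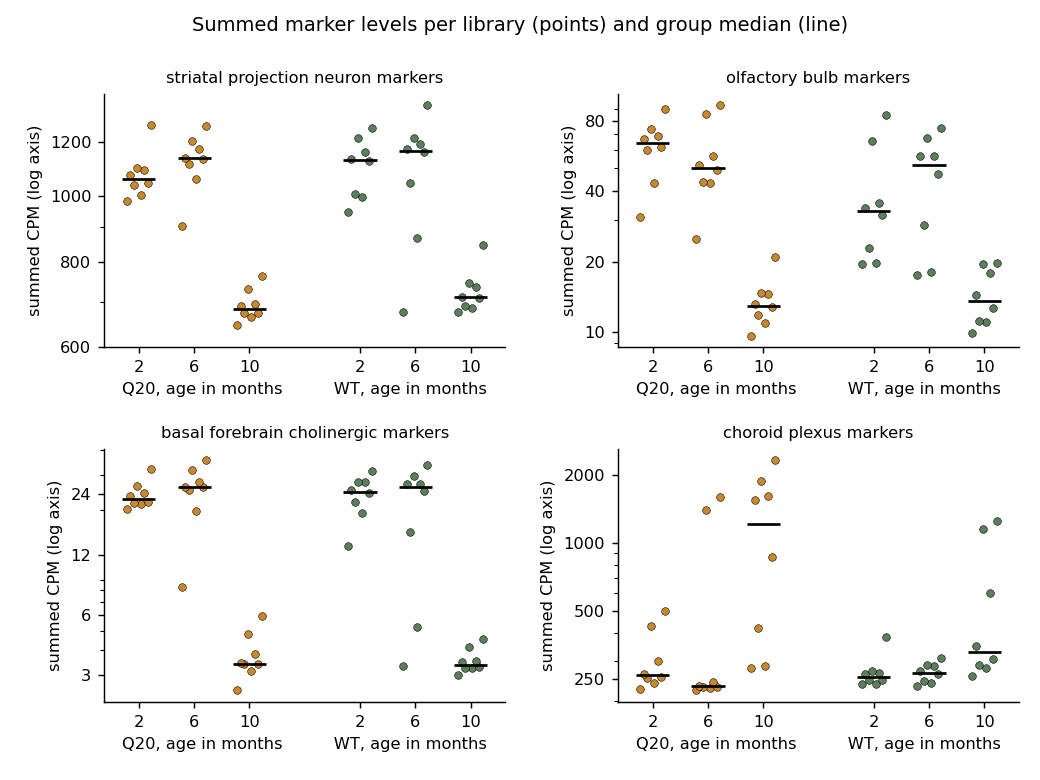
Each point is the summed CPM of a marker list in 1 library (log axis), for Q20 and WT mice at 2, 6 and 10 months, with 8 libraries a group and a line at the group median. In Q20 the striatal sum at 10 months, 647.6, 682 and 764 CPM, lies below the 2-month sum, 984, 1059 and 1272 CPM, and the choroid plexus sums at 10 months spread from 279 to 2326 CPM.

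The choroid plexus, which makes cerebrospinal fluid, moved the other way but unevenly. Of 12 tested markers 8 rose and none fell, with a median change of 1.63. Ttr, the thyroid hormone carrier that this tissue secretes, had 20.7, 613 and 1387 CPM at 10 months, against 4.75, 15.3 and 152 CPM at 2 months, and its change was 3.62 ± 1.06 (adjusted p = 0.03). Folr1, the folate receptor, had 0.223, 3.76 and 8.21 CPM at 10 months, against 0.122, 0.346 and 1.20 CPM at 2 months and changed by 2.95 ± 0.76 (adjusted p = 0.015). Kl, the klotho gene, had 2.81, 21.5 and 39.1 CPM at 10 months, against 3.37, 4.34 and 8.19 CPM at 2 months and changed by 1.92 ± 0.55 (adjusted p = 0.026). The groups overlapped for all of the 8: 5 of the 10-month libraries were above every 2-month library for Ttr, and the other 3 lay within the 2-month range.

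The summed choroid plexus level per library shows the same split. It was 1610 and 1553 CPM in 10-month females 2 and 4, and 865, 2326 and 1876 CPM in males 1, 2 and 3, against 279 and 419 CPM in females 1 and 3 and 286 CPM in male 4. In the 2-month libraries it ran from 225 to 501 CPM. Without the 4 10-month libraries of highest sum no marker was called. Those libraries were picked by the sum of these same markers and leave fewer at 10 months, so this loss of calls is not a test. In females or in males alone, which also hold fewer libraries, no marker was called, and with any 1 library left out 4 to 9 were. With a replicate block, or with a term for the L token (an element of library names whose meaning is not stated), 1 was called, and with limma on FPKM 3 were. Ttr lost its call on leaving out any of 7 libraries (2-month females 1, 2 and 4 and males 2 and 4, and 10-month females 2 and 4), Slc4a5, a bicarbonate transporter, on leaving out any of 10, and Kl on leaving out any of 3 (2-month male 4 and 10-month females 2 and 4). Ttr is also on the list of liver transcripts, whose defining member Alb was at 0.0457 CPM or below in every 10-month library and 0.147 CPM or below in every 2-month library. Of the 3 tested members of that list 2 were called higher, Ttr among them, with a median change of 1.13. The source of these transcripts was not tested.

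More markers of cortical excitatory neurons rose than fell. Of 12 tested markers of glutamatergic neurons 7 rose and 1 (Slc17a6, -0.19) fell, with a median change of 0.16. Neurod6, with the levels above, changed by 0.56 ± 0.08 (adjusted p = 1.2e-04), a 1.47-fold rise. Tbr1, which specifies deep-layer neurons, had 116, 123 and 132 CPM at 10 months, against 93.6, 103 and 107 CPM at 2 months and changed by 0.27 ± 0.04 (adjusted p = 1.3e-05). Neither overlapped. The striatal and cholinergic sums fell over the same libraries, and their part in these rises, which are relative to all RNA, was not tested. With a replicate block 4 of the 12 rose, and 3 did with a term for the L token or without the 4 10-month libraries of highest choroid plexus sum.

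Layer markers were mixed. Among 12 tested upper-layer markers 3 rose and 3 fell, and among 13 deep-layer markers 2 rose and 5 fell. Lamp5, a membrane protein of upper-layer neurons, had 203, 212 and 251 CPM at 10 months, against 167, 175.0 and 197 CPM at 2 months and rose by 0.29 ± 0.04 (adjusted p = 6.3e-05). Mdga1, an adhesion molecule of upper-layer neurons, had 13.3, 15.4 and 19.5 CPM at 10 months, against 24.5, 28.2 and 39.2 CPM at 2 months and fell by 0.91 ± 0.10 (adjusted p = 4.1e-06). Neither gene had an overlap.

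In the deep layers, Fezf2, which specifies neurons that project to the brain stem and spinal cord, had 20.6, 23.6 and 25.6 CPM at 10 months, against 15.2, 17.6 and 20.96 CPM at 2 months and rose by 0.38 ± 0.06 (adjusted p = 1.4e-04), with 1 10-month library inside the 2-month range. Syt6 (chr3:103575231-103645569, plus strand), a synaptotagmin of corticothalamic neurons, had 15.3, 17.4 and 18.8 CPM at 10 months, against 28.6, 32.3 and 36.6 CPM at 2 months and changed by -0.92 ± 0.05 (adjusted p = 4.6e-10). Foxp2, a transcription factor of corticothalamic neurons and of the striatum, had 10.4, 12.1 and 13.05 CPM at 10 months, against 15.7, 17.8 and 19.2 CPM at 2 months and changed by -0.58 ± 0.05 (adjusted p = 6.1e-08). The groups were apart for both. Satb1, a chromatin organiser expressed widely in cortical neurons, had 151, 159 and 171 CPM at 10 months, against 118, 123 and 133 CPM at 2 months and rose by 0.36 ± 0.03 (adjusted p = 2.6e-07).

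Genes of transmitter release rose more often than they fell. Of 24 tested synaptic vesicle genes 10 rose and 1 fell, the ranges of 8 did not overlap upward, and the median change was 0.06. Snap25 (chr2:136713453-136782428, plus strand), a SNARE protein that drives fusion of vesicles, had 2804, 2962 and 3209.7 CPM at 10 months, against 2183, 2327 and 2563 CPM at 2 months, a change of 0.33 ± 0.04 (adjusted p = 2.8e-06). Vamp1, a vesicle SNARE of fast-spiking and subcortical neurons, had 193, 201 and 217 CPM at 10 months, against 139.7, 163 and 177 CPM at 2 months, a change of 0.33 ± 0.04 (adjusted p = 5.4e-06). Syt2, the calcium sensor of fast release, had 70.5, 78.7 and 85.8 CPM at 10 months, against 52.2, 58.3 and 65.8 CPM at 2 months, a change of 0.41 ± 0.05 (adjusted p = 2.4e-06). The genes overlapped in no library. Syt1, the main calcium sensor of forebrain synapses, rose too, with 1562, 1672 and 1777 CPM at 10 months, against 1398, 1490.1 and 1560.3 CPM at 2 months and a change of 0.17 ± 0.03 (adjusted p = 5.4e-04). Sv2c, a vesicle protein of the striatum, was the member that fell, with 5.11, 8.80 and 9.96 CPM at 10 months, against 12.2, 15.8 and 19.1 CPM at 2 months and a change of -0.92 ± 0.12 (adjusted p = 4.5e-05).

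**Figure D3:**
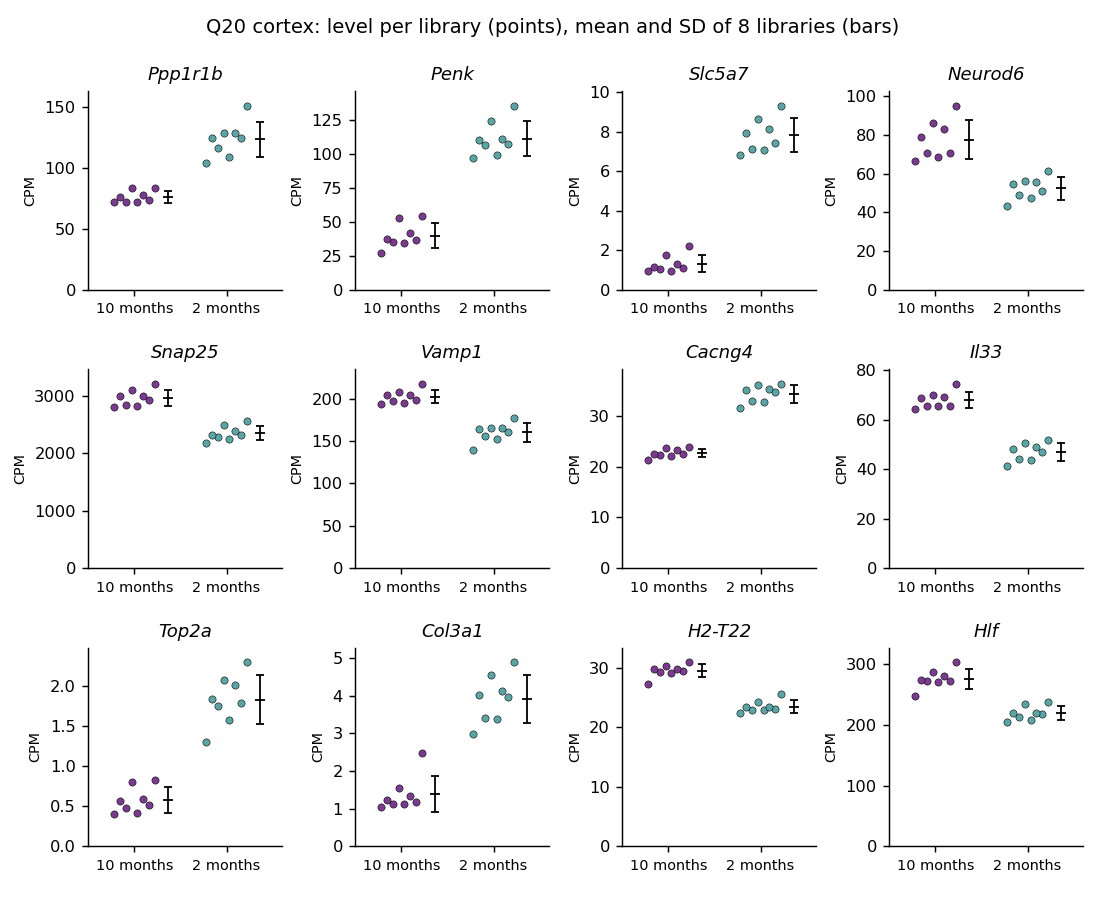
CPM of 12 genes in each Q20 library at 10 months (left) and at 2 months (right), 8 points a group, with the mean and SD of the group beside them, and y axes that start at 0. The points of the 2 ages do not overlap for any of the 12 genes. Ppp1r1b, Penk, Slc5a7, Cacng4, Top2a and Col3a1 are lower at 10 months, and Neurod6, Snap25, Vamp1, Il33, H2-T22 and Hlf are higher.

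Ion channels and receptors changed in both directions. Of 42 potassium channel genes 10 rose and 6 fell, with a median of 0.03. Kcnc2, a channel of fast-spiking interneurons, had 125, 133 and 138 CPM at 10 months, against 102, 112 and 115 CPM at 2 months and rose by 0.26 ± 0.03 (adjusted p = 7.6e-06). Kcna5, a Shaker-type potassium channel, had 1.79, 2.23 and 2.88 CPM at 10 months, against 4.37, 5.90 and 6.84 CPM at 2 months and changed by -1.29 ± 0.11 (adjusted p = 6.5e-08). Neither gene overlapped between ages.

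Glutamate receptors fell where they were called: 9 of 22 fell and none rose, with a median of -0.14. Grin2d, an NMDA receptor subunit of interneurons and of young brain, had 9.38, 10.7 and 11.6 CPM at 10 months, against 13.98, 14.9 and 16.5 CPM at 2 months and changed by -0.49 ± 0.05 (adjusted p = 6.8e-07). Grin3a, an NMDA receptor subunit whose level is known to drop after early life, had 32.99, 37.3 and 39.3 CPM at 10 months, against 44.3, 47.6 and 48.3 CPM at 2 months and changed by -0.36 ± 0.04 (adjusted p = 2.5e-06). Grik2, a kainate receptor subunit, had 51.7, 54.9 and 61.5 CPM at 10 months, against 62.1, 70.9 and 74.5 CPM at 2 months and changed by -0.34 ± 0.04 (adjusted p = 7.6e-06). None of the 3 overlapped.

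Of 16 genes of GABA receptors and transport 3 rose and 3 fell. Slc6a11, the GABA transporter of astrocytes, had 136, 149.9 and 165 CPM at 10 months, against 186, 209 and 228 CPM at 2 months and changed by -0.48 ± 0.04 (adjusted p = 8.5e-08), without overlap. Several of the falling receptors and channels are striatal genes too, and the part of the lower striatal sum in these changes was not tested.

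Among 22 interneuron markers 4 rose and 10 fell, with a median of -0.12. Those that rose were Pvalb, Vip, Cck and Crhbp. Pvalb, the calcium buffer of fast-spiking basket cells, had 51.8, 56.9 and 71.9 CPM at 10 months, against 35.4, 43.6 and 46.2 CPM at 2 months and rose by 0.48 ± 0.07 (adjusted p = 1.0e-04), and Vip, the peptide of disinhibitory interneurons, had 41.2, 42.4 and 50.6 CPM at 10 months, against 28.7, 35.5 and 38.7 CPM at 2 months and rose by 0.33 ± 0.06 (adjusted p = 2.4e-04). The 2 genes, outside the rule by which genes were named, were chosen after their values were seen, and neither overlapped. Gad2, which makes GABA, had 136, 143 and 170.4 CPM at 10 months, against 210.0, 219 and 231 CPM at 2 months and changed by -0.57 ± 0.04 (adjusted p = 1.9e-08). Dlx6, a transcription factor of developing and striatal GABA neurons, had 3.72, 4.17 and 4.59 CPM at 10 months, against 6.38, 7.05 and 8.04 CPM at 2 months and changed by -0.77 ± 0.07 (adjusted p = 8.4e-08). Gad2, Dlx6, Tac1 and Calb2 are also used by striatal or bulb neurons, whose marker sums were lower in the same libraries, and the part of these regions was not tested. Of 22 neuropeptide genes, a list that shares Penk, Pdyn, Tac1 and Nts with the lists above, 4 rose and 8 fell beside the lower striatal sum, whose part was not tested.

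The oligodendrocyte lineage shifted in its early members. Of 11 tested markers of oligodendrocyte precursors 9 fell and none rose, with a median of -0.31 and a summed level of 381, 451 and 498 CPM at 10 months, against 531, 571 and 605 CPM at 2 months. No 10-month sum reached the lowest 2-month sum. Cacng4 (chr11:107732357-107794557, minus strand), an AMPA receptor auxiliary subunit that precursors express, had 21.4, 22.6 and 23.9 CPM at 10 months, against 31.6, 35.0 and 36.4 CPM at 2 months, a change of -0.60 ± 0.04 (adjusted p = 1.5e-09). Gpr17, a receptor of precursors that are committed to differentiate, had 23.9, 35.4 and 38.4 CPM at 10 months, against 43.7, 54.3 and 60.0 CPM at 2 months, a change of -0.65 ± 0.08 (adjusted p = 2.9e-05). Pdgfra, the growth factor receptor that defines precursors, had 51.3, 56.3 and 63.2 CPM at 10 months, against 63.4, 69.3 and 74.7 CPM at 2 months, a change of -0.29 ± 0.05 (adjusted p = 1.9e-04). The 3 genes overlapped in no library.

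Newly formed oligodendrocytes had 7 of 11 markers lower and none higher, with a median of -0.23. Tcf7l2, a transcription factor of this stage and of the thalamus, had 3.51, 3.97 and 4.48 CPM at 10 months, against 5.38, 5.996 and 7.32 CPM at 2 months and changed by -0.62 ± 0.08 (adjusted p = 8.3e-06). Of 24 markers of mature oligodendrocytes 7 rose and 3 fell, and the myelin genes Mbp and Mog were not called: Mbp had a change of 0.09 ± 0.05 (adjusted p = 0.29) and Mog of -0.12 ± 0.06 (adjusted p = 0.17). The summed level of this list was 5305, 5789.9 and 6299.8 CPM at 10 months, against 4919.6, 5592 and 6340.1 CPM at 2 months, with wide overlap. Ermn, a cytoskeletal protein of late oligodendrocytes, had 61.0, 66.0 and 76.8 CPM at 10 months, against 47.7, 52.7 and 58.0 CPM at 2 months and rose by 0.35 ± 0.05 (adjusted p = 4.7e-05). Anln, which encodes the septin partner anillin in myelin, had 34.3, 38.6 and 51.6 CPM at 10 months, against 23.9, 26.7 and 31.9 CPM at 2 months and rose by 0.57 ± 0.08 (adjusted p = 7.9e-05). Trf, the iron carrier transferrin that oligodendrocytes make, had 218, 236 and 258 CPM at 10 months, against 158, 189 and 228 CPM at 2 months and rose by 0.32 ± 0.06 (adjusted p = 5.3e-04), with 5 of 8 libraries above the 2-month range. Gsn, 1 of the 3 mature markers that fell, changed by -0.30 (adjusted p = 4.8e-05).

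Genes of dividing cells and young neurons fell more often than they rose. Of 18 tested proliferation genes 5 fell, 1 (Pcna, 0.17) rose and 12 were not called. The summed level of this list was 70.9, 72.4 and 80.9 CPM at 10 months, against 70.2, 76.6 and 79.7 CPM at 2 months, with wide overlap. Top2a, the topoisomerase of dividing cells, had 0.408, 0.540 and 0.830 CPM at 10 months, against 1.30, 1.81 and 2.29 CPM at 2 months, a change of -1.69 ± 0.13 (adjusted p = 2.0e-08). Mki67, the proliferation antigen Ki-67, had 0.776, 1.30 and 1.42 CPM at 10 months, against 1.63, 2.70 and 3.26 CPM at 2 months, a change of -1.02 ± 0.12 (adjusted p = 4.6e-06). Both were under 4 CPM in every library and did not overlap. Of 22 genes of immature neurons and growth 13 fell and 1 rose, with a median of -0.27.

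Igfbpl1, a marker of migrating neuroblasts, had 0.0719, 0.209 and 0.388 CPM at 10 months, against 1.34, 1.68 and 2.27 CPM at 2 months, a change of -3.15 ± 0.23 (adjusted p = 1.0e-08). Marcksl1, an actin-binding protein of growing processes, had 25.0, 30.1 and 34.0 CPM at 10 months, against 50.1, 58.0 and 73.9 CPM at 2 months and changed by -0.98 ± 0.07 (adjusted p = 3.9e-08). Dpysl3 and Dpysl5, members of the collapsin response family that steer growing axons, changed by -0.50 ± 0.04 (adjusted p = 6.3e-09) and -0.50 ± 0.04 (adjusted p = 9.4e-08). Sox4, a transcription factor of newborn neurons, had 7.39, 9.59 and 11.6 CPM at 10 months, against 15.2, 17.3 and 21.9 CPM at 2 months and changed by -0.90 ± 0.09 (adjusted p = 2.1e-06). No library overlapped for these 5 genes. Newborn neurons also lie along the path to the olfactory bulb, whose marker sum was lower in the same libraries, and its part was not tested.

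Astrocyte genes fell where they were called. Of 16 tested markers 8 fell and none rose, with a median of -0.10. Aqp4, the water channel of astrocyte endfeet, had 109, 113 and 123 CPM at 10 months, against 128, 136 and 148 CPM at 2 months and changed by -0.29 ± 0.04 (adjusted p = 1.1e-05), without overlap. Of 15 tested gliosis genes 5 fell and none rose. Gfap, the intermediate filament that rises in reactive astrocytes, had 90.1, 103 and 119 CPM at 10 months, against 113, 120.1 and 137 CPM at 2 months and changed by -0.23 ± 0.05 (adjusted p = 0.0021), with 6 of 8 libraries below the 2-month range.

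Microglia changed little: 1 of 20 markers rose and 2 fell, close to the shares over all genes, with a median of -0.009. The 1 that rose was Ctss, and Ctsb is not on that list. Ctss, the cathepsin S of microglia, had 66.4, 68.5 and 86.0 CPM at 10 months, against 54.5, 58.7 and 64.8 CPM at 2 months and rose by 0.25 ± 0.05 (adjusted p = 5.7e-04), and Ctsb, another lysosomal protease, had 505, 531 and 580.5 CPM at 10 months, against 457, 475 and 502 CPM at 2 months and rose by 0.16 ± 0.03 (adjusted p = 9.8e-04). Both genes had every 10-month library above the 2-month range.

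Genes of vessels, meninges and matrix also fell where they were called. Of 12 tested meningeal fibroblast markers 8 fell, of 12 pericyte and smooth muscle markers 6 fell, and of 16 endothelial markers 5 fell, and no member of these lists rose. The meningeal sum was 95.1, 119 and 168 CPM at 10 months, against 146, 166 and 174 CPM at 2 months, with overlap, and without the 4 10-month libraries of highest choroid plexus sum 4 of the 12 fell. Acta2, the actin of smooth muscle, had 7.69, 10.3 and 14.8 CPM at 10 months, against 13.9, 18.5 and 22.4 CPM at 2 months and changed by -0.79 ± 0.13 (adjusted p = 4.4e-04), with 7 of 8 libraries below the 2-month range. Tie1, a receptor of endothelium, had 10.1, 10.9 and 13.2 CPM at 10 months, against 12.3, 13.4 and 14.8 CPM at 2 months and changed by -0.27 ± 0.06 (adjusted p = 0.0034), with overlap.

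Of 20 collagen genes 11 fell and 1 rose, and of 28 other matrix genes 13 fell and none rose, with medians of -0.36 and -0.21. Col3a1 (chr1:45311538-45349706, plus strand), a fibrillar collagen of connective tissue, had 1.03, 1.20 and 2.49 CPM at 10 months, against 2.97, 3.99 and 4.89 CPM at 2 months, a change of -1.50 ± 0.15 (adjusted p = 6.9e-07). Col1a2, of type I collagen, had 7.98, 8.99 and 14.2 CPM at 10 months, against 14.97, 16.7 and 19.6 CPM at 2 months, a change of -0.77 ± 0.10 (adjusted p = 1.6e-05). Postn, the matrix protein periostin, had 1.596, 2.11 and 2.97 CPM at 10 months, against 3.21, 4.96 and 5.56 CPM at 2 months, a change of -1.14 ± 0.10 (adjusted p = 8.3e-08). Tnc, the matrix protein tenascin C of growing tissue, had 1.67, 2.55 and 3.05 CPM at 10 months, against 4.01, 4.82 and 5.80 CPM at 2 months, a change of -0.99 ± 0.13 (adjusted p = 1.6e-05). These 4 genes did not overlap, and the meningeal list, which shares collagens with this one, also had 8 members lower; the part of the meninges was not tested.

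The perineuronal net, a matrix around fast-spiking interneurons, had 7 of 16 genes lower and 2 higher, with a median of -0.24. The genes detailed in this paragraph are not among those that fell. Hapln4, a link protein of nets and of nodes, had 115, 124 and 138 CPM at 10 months, against 91.4, 95.9 and 100.3 CPM at 2 months and rose by 0.38 ± 0.04 (adjusted p = 4.3e-07), without overlap. Hapln2, the link protein of nodes of Ranvier, rose by 0.36 ± 0.09 (adjusted p = 0.0061). The main proteoglycan of nets, Acan, changed by -0.09 ± 0.09 (adjusted p = 0.57) and was not called.

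Antigen presentation genes of MHC class I rose where they were called. Of 16 tested members 8 rose and none fell, with a median of 0.22, and in 4 the ranges did not overlap. H2-T22, a class I molecule that T cells with gamma delta receptors bind, had 27.2, 29.6 and 30.9 CPM at 10 months, against 22.4, 23.2 and 25.6 CPM at 2 months, a change of 0.32 ± 0.04 (adjusted p = 2.4e-06). B2m, the light chain of all class I molecules, had 76.7, 89.4 and 104 CPM at 10 months, against 64.6, 74.5 and 83.9 CPM at 2 months, a change of 0.26 ± 0.06 (adjusted p = 0.0038), with 6 of 8 libraries above the 2-month range. H2-D1, a classical heavy chain, had 36.9, 43.3 and 45.2 CPM at 10 months, against 34.2, 36.5 and 38.6 CPM at 2 months, a change of 0.20 ± 0.04 (adjusted p = 0.0023).

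H2-Q7 had 2.40, 2.89 and 9.45 CPM at 10 months, against 1.39, 1.73 and 2.25 CPM at 2 months and rose by 1.04 ± 0.25 (adjusted p = 0.008), and its near-copy H2-Q6 had 2.28, 2.61 and 5.78 CPM at 10 months, against 1.45, 1.72 and 1.92 CPM at 2 months and rose by 0.83 ± 0.16 (adjusted p = 9.9e-04). Both had every 10-month library above the 2-month range, and 10-month female 3 was far above the others for both. Reads of these copies can be shared, so the division between them is uncertain. Psmb9, of the immunoproteasome, and Tap2, of the peptide transporter, rose by 0.40 ± 0.11 (adjusted p = 0.02) and 0.21 ± 0.07 (adjusted p = 0.029), while H2-K1 changed by 0.10 ± 0.06 (adjusted p = 0.27) and was not called. With a term for the L token 3 of the 16 were called, all higher.

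Interferon-stimulated genes as a whole were near the background, with 2 of 24 higher and 1 lower. Ifi27 had 21.9, 24.5 and 26.8 CPM at 10 months, against 16.7, 19.8 and 20.6 CPM at 2 months and rose by 0.31 ± 0.05 (adjusted p = 1.2e-04), and Xaf1 had 5.26, 7.15 and 9.10 CPM at 10 months, against 4.33, 5.78 and 6.31 CPM at 2 months and rose by 0.34 ± 0.09 (adjusted p = 0.013). Isg15, a ubiquitin-like protein induced by interferon, had 1.15, 1.43 and 1.58 CPM at 10 months, against 1.47, 1.66 and 2.17 CPM at 2 months and fell by 0.32 ± 0.11 (adjusted p = 0.045). Isg15 lost its call on leaving out any of 11 libraries, and with DESeq2, no filter, the replicate block or the L token. Of 10 MHC class II genes 1 rose and 1 fell, and of 16 complement genes 2 rose and 3 fell.

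Promoter windows of called members, from 250 bases before to 50 after the start of the gene (RefSeq, build GRCm38.p6), are shown with the core of the interferon response element in capitals, 2 copies of GAAA with any 2 bases between them, on either strand. This motif stood in 3.44% of 32851 such windows. The search in the class I genes was added after their values were seen. Of the 14 class I members that have a window 3 hold the motif, and of the 7 called ones 2 do. Isg15 has 3 overlapping matches, H2-T22 and B2m have 1 each, and Xaf1 has none. The windows lie at chr17:36042693-36042992 (minus strand), chr2:122147437-122147736 (plus strand), chr4:156200769-156201068 (minus strand) and chr11:72301379-72301678 (plus strand). A match is a string of letters and not a site in use.
H2-T22: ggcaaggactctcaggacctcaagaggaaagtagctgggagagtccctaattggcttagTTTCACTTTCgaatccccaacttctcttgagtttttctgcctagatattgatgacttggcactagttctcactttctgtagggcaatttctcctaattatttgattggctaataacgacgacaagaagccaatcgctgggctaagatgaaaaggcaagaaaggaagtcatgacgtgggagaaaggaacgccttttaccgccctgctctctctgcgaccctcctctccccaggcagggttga
B2m: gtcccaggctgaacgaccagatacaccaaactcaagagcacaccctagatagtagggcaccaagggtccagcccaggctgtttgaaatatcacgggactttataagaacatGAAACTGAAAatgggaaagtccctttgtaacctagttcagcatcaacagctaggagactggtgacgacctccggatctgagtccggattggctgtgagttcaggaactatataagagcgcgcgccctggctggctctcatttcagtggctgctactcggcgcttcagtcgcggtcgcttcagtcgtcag
Isg15: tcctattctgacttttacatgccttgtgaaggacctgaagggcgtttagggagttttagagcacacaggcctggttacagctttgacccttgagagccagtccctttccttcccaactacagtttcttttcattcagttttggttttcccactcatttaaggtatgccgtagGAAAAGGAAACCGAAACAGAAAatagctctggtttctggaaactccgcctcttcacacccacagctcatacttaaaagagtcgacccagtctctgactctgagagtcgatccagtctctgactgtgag
Xaf1: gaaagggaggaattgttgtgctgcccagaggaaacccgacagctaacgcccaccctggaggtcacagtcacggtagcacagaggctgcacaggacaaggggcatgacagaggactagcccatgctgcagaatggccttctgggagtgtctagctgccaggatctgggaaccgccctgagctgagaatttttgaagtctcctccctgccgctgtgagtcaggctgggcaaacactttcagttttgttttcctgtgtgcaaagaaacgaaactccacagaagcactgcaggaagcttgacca

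Clock genes, which drive daily rhythms, rose where they were called. Of 16 tested members 4 rose and none fell, with a median of 0.11. Hlf, an output transcription factor of the clock, had 247, 273 and 303 CPM at 10 months, against 205, 219 and 238 CPM at 2 months and rose by 0.32 ± 0.04 (adjusted p = 7.9e-06), without overlap. Bhlhe41, a repressor within the clock, had 40.8, 45.3 and 52.8 CPM at 10 months, against 33.5, 37.4 and 43.4 CPM at 2 months and rose by 0.32 ± 0.05 (adjusted p = 3.0e-04), with 6 of 8 libraries above the 2-month range. Nr1d2, the nuclear receptor REV-ERB beta, had 155, 164 and 170.2 CPM at 10 months, against 137, 141 and 157 CPM at 2 months and rose by 0.17 ± 0.03 (adjusted p = 5.7e-04), with 6 of 8 libraries above. Cry1, a core repressor, had 17.9, 19.2 and 24.3 CPM at 10 months, against 12.7, 16.03 and 20.96 CPM at 2 months and changed by 0.29 ± 0.09 (adjusted p = 0.029), and lost its call on leaving out any of 7 libraries. Bmal1 (Arntl), Clock, Per1, Per2 and Per3 were not called, with changes of 0.07, -0.06, -0.23, 0.16 and 0.11. The labels give no hour of dissection.

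The windows of the 3 clock genes with the smallest p are shown with CACGTG, the E-box that the clock activators bind, in capitals. It stood in 7.15% of all windows, in 5 of the 14 clock genes that have a window, and in 2 of the 4 called ones, Bhlhe41 and Cry1. The windows lie at chr11:90390868-90391167 (minus strand), chr6:145865371-145865670 (minus strand) and chr14:18239057-18239356 (minus strand).
Hlf: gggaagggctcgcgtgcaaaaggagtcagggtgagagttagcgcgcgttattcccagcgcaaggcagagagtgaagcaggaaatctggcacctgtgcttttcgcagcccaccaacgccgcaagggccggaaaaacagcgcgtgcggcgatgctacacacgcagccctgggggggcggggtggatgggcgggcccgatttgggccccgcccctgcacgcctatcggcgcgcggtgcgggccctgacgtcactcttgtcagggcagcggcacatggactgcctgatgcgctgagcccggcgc
Bhlhe41: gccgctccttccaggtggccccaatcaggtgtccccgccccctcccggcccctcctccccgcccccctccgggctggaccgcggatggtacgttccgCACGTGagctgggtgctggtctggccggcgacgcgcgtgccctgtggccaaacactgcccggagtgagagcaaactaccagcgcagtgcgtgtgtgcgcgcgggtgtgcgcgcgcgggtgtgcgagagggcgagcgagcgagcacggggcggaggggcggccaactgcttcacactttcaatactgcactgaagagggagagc
Nr1d2: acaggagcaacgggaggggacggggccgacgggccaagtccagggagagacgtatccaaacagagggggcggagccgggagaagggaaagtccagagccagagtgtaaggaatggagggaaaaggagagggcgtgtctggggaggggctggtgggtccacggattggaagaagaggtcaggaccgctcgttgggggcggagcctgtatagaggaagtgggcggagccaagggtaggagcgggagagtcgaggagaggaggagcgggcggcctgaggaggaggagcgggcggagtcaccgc

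Immediate early genes, which neurons switch on with activity, had 2 of 22 members lower, Jun and Nptx2, and none higher. The share that fell is near the 9.97% over all genes tested. Jun, a subunit of the AP-1 factor, had 20.9, 26.6 and 32.4 CPM at 10 months, against 30.5, 34.8 and 38.4 CPM at 2 months and fell by 0.39 ± 0.08 (adjusted p = 0.0011), with 7 of 8 libraries below the 2-month range. Fos was not called, with 8.90, 31.6 and 41.8 CPM at 10 months, against 26.1, 43.6 and 52.0 CPM at 2 months and a change of -0.60 ± 0.28 (adjusted p = 0.17). The Jun window (chr4:95052173-95052472, minus strand), shown as the called member that has one, does not hold TGACGTCA, the motif bound by CREB, which stood in 1.79% of windows and would be in capitals.
Jun: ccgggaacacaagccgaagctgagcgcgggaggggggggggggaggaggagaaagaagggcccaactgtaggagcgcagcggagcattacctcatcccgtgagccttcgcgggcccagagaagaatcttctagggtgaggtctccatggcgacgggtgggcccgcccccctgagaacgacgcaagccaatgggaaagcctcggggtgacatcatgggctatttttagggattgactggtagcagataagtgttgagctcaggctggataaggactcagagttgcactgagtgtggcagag

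The beta protocadherins, neuronal adhesion molecules that lie in a row on 1 chromosome and take part in recognition between neurons, rose more often than they fell: 8 of 21 rose and 1 (Pcdhb18, -0.28) fell. Pcdhb9 had 14.8, 15.7 and 16.9 CPM at 10 months, against 10.2, 11.02 and 11.5 CPM at 2 months and rose by 0.51 ± 0.04 (adjusted p = 4.0e-08), and Pcdhb3 had 7.70, 8.22 and 9.13 CPM at 10 months, against 4.77, 5.69 and 7.09 CPM at 2 months and rose by 0.51 ± 0.06 (adjusted p = 9.3e-06). Neither overlapped, and with a replicate block 5 of the 21 rose. Members are alike in sequence, and reads can be shared between them.

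Chromatin genes fell where called, 6 of 20 with none higher. Tet1, which oxidises methylated cytosine, had 11.1, 14.1 and 15.8 CPM at 10 months, against 16.5, 17.3 and 19.9 CPM at 2 months and changed by -0.33 ± 0.07 (adjusted p = 0.0011), and Ezh2, the methyltransferase of the Polycomb complex, had 5.67, 6.31 and 6.81 CPM at 10 months, against 6.94, 7.51 and 8.41 CPM at 2 months and changed by -0.26 ± 0.06 (adjusted p = 0.0047). Uhrf1, the partner of maintenance methylation in dividing cells, had 0.584, 0.853 and 0.959 CPM at 10 months, against 1.03, 1.21 and 1.68 CPM at 2 months and changed by -0.63 ± 0.14 (adjusted p = 0.0031). The 3 genes did not overlap.

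Of 16 genes of thyroid hormone and retinoid action 2 rose and 5 fell. Thrb, a thyroid hormone receptor, had 65.4, 69.6 and 76.5 CPM at 10 months, against 56.7, 58.7 and 62.3 CPM at 2 months and rose by 0.25 ± 0.03 (adjusted p = 2.9e-05). Rxrg and Rarb, retinoid receptors of the striatum, fell beside the lower striatal sum, with changes of -1.19 ± 0.11 (adjusted p = 1.8e-07) and -0.74 ± 0.09 (adjusted p = 7.9e-06). Of the genes linked to p53 and senescence, 2 of 15 rose and 1 fell. Ccng1, a p53 target, had 92.2, 99.6 and 113 CPM at 10 months, against 71.9, 79.1 and 82.7 CPM at 2 months and rose by 0.34 ± 0.04 (adjusted p = 6.6e-06). Eda2r, a receptor whose level is known to rise with age in several tissues, had 0.448, 0.631 and 0.714 CPM at 10 months, against 0.206, 0.290 and 0.467 CPM at 2 months and rose by 0.92 ± 0.18 (adjusted p = 8.8e-04), with 7 of 8 libraries above the 2-month range.

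The remaining lists follow, and over all genes tested 8.05% were higher and 9.97% lower. None of 13 mitochondrially encoded genes, 25 ribosomal protein genes, 10 ependymal markers or 5 blood genes was called. Of 24 nuclear genes of the respiratory chain 2 rose, of 16 heat shock genes 1 rose, of 24 genes of endoplasmic reticulum stress 3 rose and of 24 lysosomal genes 4 rose and 1 fell. Of 25 cholesterol synthesis genes 4 rose and 1 fell, and of 18 myelin lipid genes 2 rose and 2 fell. Insulin and growth factor genes had 2 of 20 higher and 2 lower, glucocorticoid response genes 1 of 18 higher and 2 lower, activated microglia genes 2 of 15 higher and 2 lower, and cohesin and nuclear organisation genes 1 of 12 higher. Signalling genes of cAMP, calcium and opioids, a list with many striatal members, had 6 of 29 higher and 8 lower. Both counts are above the shares over all genes tested, and the part of the lower striatal sum was not tested.

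**Figure D4:**
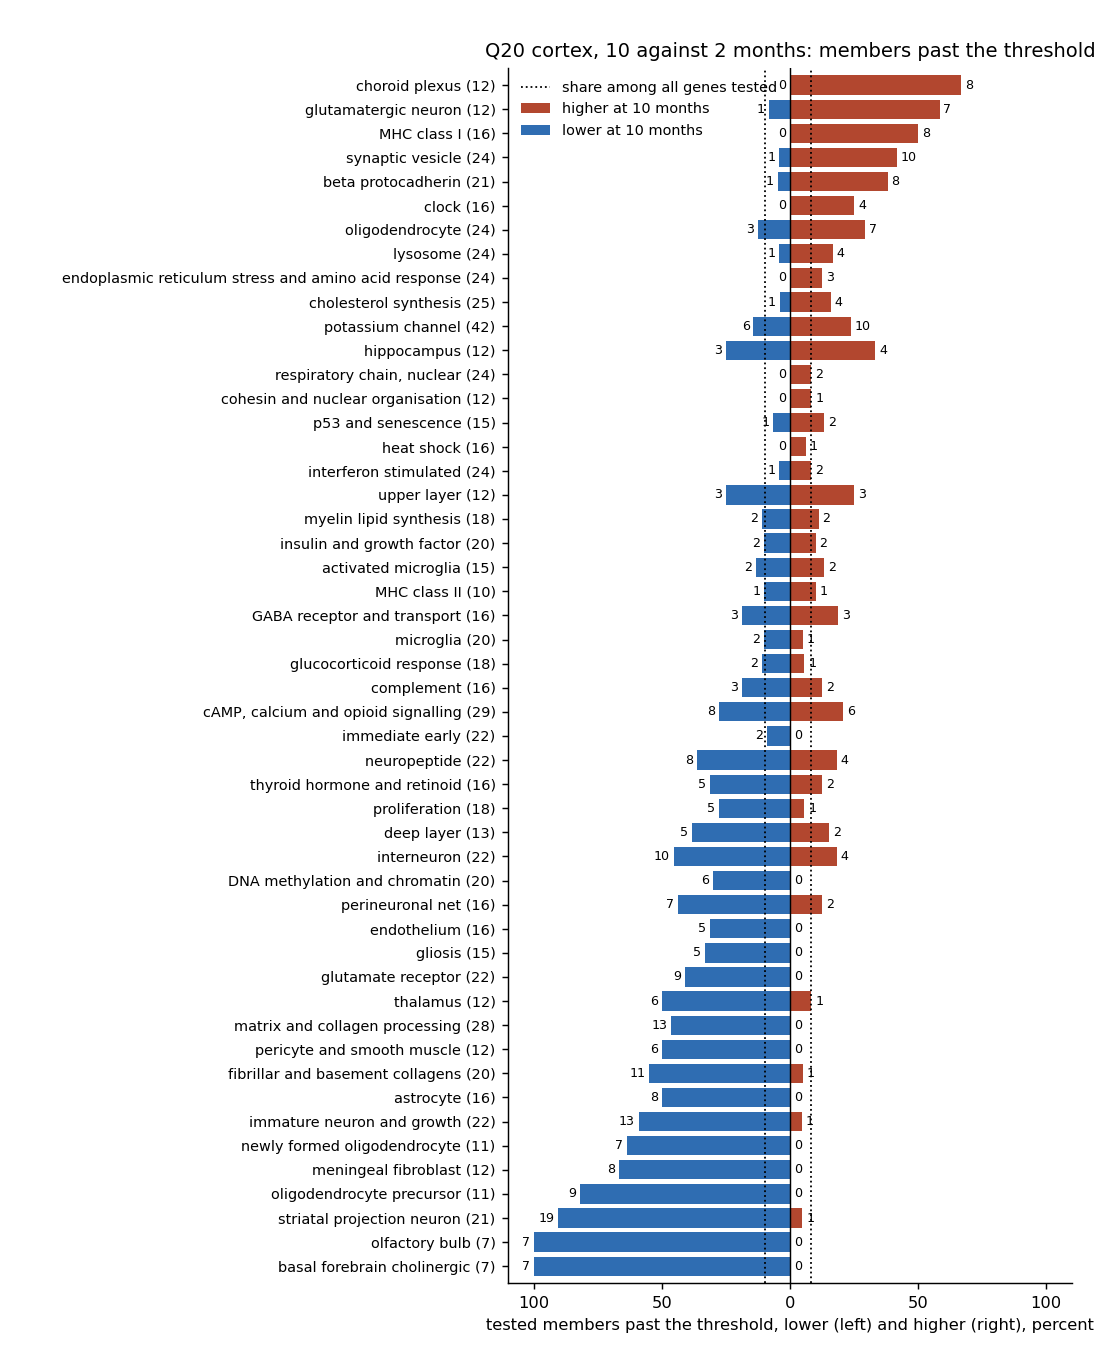
For each gene list with at least 5 tested members (their number in brackets) and at least 1 called, bars show the percent of tested members higher (red, right) and lower (blue, left) at 10 months, with the counts at the bar ends and dotted lines at the shares over all genes tested. The cholinergic, olfactory bulb, striatal and oligodendrocyte precursor lists stand lowest, and the choroid plexus, glutamatergic neuron and MHC class I lists highest. The cholinergic and olfactory bulb lists were added after values were seen, so their place is not independent of these data.

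Q20 libraries of 6 months exist, but their names have another form, so that age and library series cannot be told apart and their levels are a description. The striatal sum was 984, 1059 and 1272 CPM at 2 months, 903, 1136 and 1266 CPM at 6 months and 647.6, 682 and 764 CPM at 10 months. The cholinergic sum was 20.2, 22.7 and 32.2 CPM at 2 months, 8.24, 26.1 and 35.5 CPM at 6 months and 2.52, 3.43 and 5.90 CPM at 10 months. In both, no 6-month library reached the 10-month range. Of the 6-month libraries, 1 (female 3) lay below every 2-month library in the striatal sum and 2 (females 3 and 4) in the cholinergic sum. In WT, in contrast, the lowest 6-month cholinergic sum was 3.33 CPM, inside the WT 10-month range of 3.01 to 4.58 CPM. The lowest WT 6-month striatal sum, 675.7 CPM, was likewise inside the WT 10-month range of 675.4 to 846.7 CPM.

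Some other genes had medians between the outer ages at 6 months, and some did not. Top2a had a median of 1.81 CPM at 2 months, 0.950 at 6 months and 0.540 at 10 months, Spag6 had 2.28, 3.75 and 5.30 CPM, Il33 had 47.5, 56.0 and 67.1 CPM, and H2-T22 had 23.2, 27.6 and 29.6 CPM. The 6-month median of Snap25 was not between the others, with 2327, 2242 and 2962 CPM, nor were those of Neurod6, Penk and Ppp1r1b. The median sums of the lists that hold Top2a and H2-T22 were not graded either. At 2, 6 and 10 months they were 76.6, 71.6 and 72.4 CPM for proliferation and 246, 289 and 282 CPM for MHC class I. In a fit of the 24 Q20 libraries 33.6% of 16850 genes were called between 6 and 2 months and 48.4% between 10 and 6 months, beside the 18% of genes between 10 and 2 months in the 16 libraries, and these comparisons share libraries.

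WT mice, housed with Q20 mice and sharing no library with them, gave the same comparison beside the Q20 one. In WT, 616 genes (3.74%) were higher and 945 (5.73%) lower at 10 months, together 9.47% of 16489 tested, with a spread between libraries (biological coefficient of variation) of 0.104 in WT, against 0.0833 in Q20. Of 16361 genes tested in both, 1247 were called in both, which is 42.4% of those called in Q20 and 80.4% of those called in WT, and all 1247 had the same direction. Of the 2944 genes called in Q20, 98.1% had the same sign in WT, against 72.6% of all genes tested in both. The median ratio of the WT to the Q20 change over these genes was 0.79. These genes were picked by their Q20 calls, which favours large Q20 changes. The ratio therefore cannot tell whether WT changes were smaller.

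The difference in age change was tested directly. No gene of 16954 was called for Q20 minus WT in edgeR or in DESeq2, and 383 (2.26%) had an unadjusted p under 0.05. The smallest p on the higher side belonged to Defb1, a defensin, which had 0.418, 0.547 and 0.754 CPM at 10 months, against 0.0292, 0.0815 and 0.201 CPM at 2 months in Q20 and a change of 2.60 ± 0.28 (adjusted p = 1.5e-06), against 1.02 ± 0.25 (adjusted p = 0.012) in WT, a difference of 1.59 ± 0.39 (adjusted p = 0.99). On the lower side Chtf18, of the loading of replication clamps, had the smallest p, with a difference of -0.61 ± 0.17 (adjusted p = 0.99). Among the 5 genes that led that side, Barhl2, a transcription factor, had 0.0296, 0.0667 and 0.267 CPM at 10 months, against 0.382, 0.504 and 0.768 CPM at 2 months in Q20 and a change of -2.32 ± 0.30 (adjusted p = 1.4e-05), against -0.61 ± 0.40 (adjusted p = 0.41) in WT, a difference of -1.71 ± 0.54 (adjusted p = 0.99). The median standard error of such a difference was 0.0938, and in simulated data of this comparison 32% of differences of 0.3 and 76% of differences of 0.6 were found. In the real libraries, the 2.26% with an unadjusted p under 0.05 is below the share that this threshold gives without any difference. The simulated counts were not shown to vary like the real ones, so their shares found need not hold for these libraries.

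Of the members described above, 6 are given here with their WT changes, and they moved alike. They do not stand for all, since 42.4% of the genes called in Q20 were also called in WT. Ppp1r1b changed by -0.70 ± 0.07 (adjusted p = 1.7e-06) in WT, Slc5a7 by -2.73 ± 0.18 (adjusted p = 1.6e-08), Neurod6 by 0.43 ± 0.07 (adjusted p = 3.8e-04), Snap25 by 0.27 ± 0.05 (adjusted p = 0.0035), Cacng4 by -0.53 ± 0.05 (adjusted p = 3.6e-06) and H2-T22 by 0.25 ± 0.04 (adjusted p = 5.1e-04). Each of these 6 was called in WT in the direction it had in Q20. The striatal sum in WT was 675, 710.3 and 846.7 CPM at 10 months, against 947, 1130 and 1261 CPM at 2 months, and 18 of 21 striatal markers fell, as did 7 of 7 cholinergic markers and 4 of 5 olfactory bulb markers. The choroid plexus sum in WT was 259, 329 and 1252 CPM at 10 months, against 237, 255 and 383 CPM at 2 months, and none of the 12 markers was called. Of MHC class I genes 3 of 16 rose in WT. Since no gene at all was called for a difference between Q20 and WT, no member of these lists was, which says nothing particular to them. The median change of the choroid plexus markers was 0.71 in WT, against 1.63 in Q20, and their median difference, Q20 minus WT, was 0.93.

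**Figure D5:**
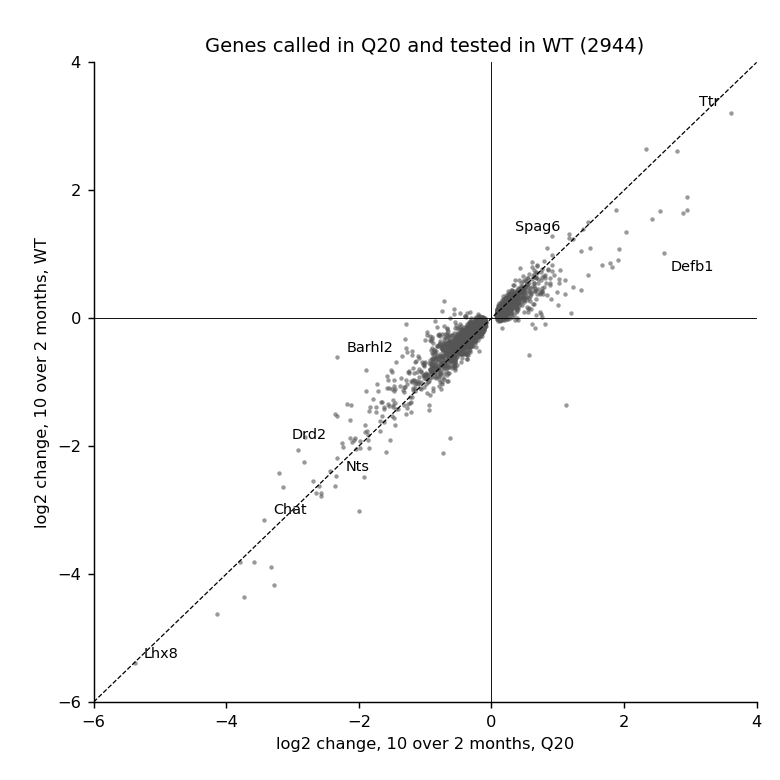
Each point is 1 of the 2944 genes called in Q20 and tested in WT, with its log2 change of 10 over 2 months in Q20 on the x axis and in WT on the y axis, and a dashed line of equal change. Most points lie near the line on the same side of 0 in both, with Lhx8 at the lower left, while Defb1 and Barhl2 lie off the line.

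Females and males were compared as an interaction of age and sex, with 4 libraries for each age and sex. No gene was called in edgeR, 2 were in DESeq2, and 733 (4.45% of 16473) had an unadjusted p under 0.05. Gabra2, a GABA receptor subunit, led the side where the female change was higher, with a difference of 0.54 ± 0.11 (adjusted p = 0.62). Myl9 and Acta2, of smooth muscle, led the other side, with differences of -0.52 ± 0.10 (adjusted p = 0.5) and -0.77 ± 0.17 (adjusted p = 0.88). Fitted alone, the females gave 1510 calls and the males 902.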

How the data were processed

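PolyA RNA of flash-frozen mouse cortex was sequenced on Illumina instruments, per the labels' protocols, and the submitters' processing notes name CASAVA 1.8.2. The authors deposited estimated counts per gene and FPKM values in tables of the whole series. Which aligner, genome build and annotation were used is not given in the sources used here. Of the deposited estimated counts, 17.7% were not whole, and they were rounded to whole numbers before testing.

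The members and the gene lists were chosen with earlier results of these data known. The olfactory bulb and basal forebrain cholinergic lists and the motif search in MHC class I genes were added after values were seen. Genes were kept with filterByExpr (minimum count 10, minimum total 15), scaled by TMM and tested with edgeR 4.0.16 (quasi-likelihood, robust) in R 4.3.3, with sex as a covariate and Benjamini-Hochberg adjustment over all genes tested. CPM values use TMM factors over the Q20 and WT libraries of all 3 ages. In simulated data of the age comparison in Q20, run on 16473 genes, 68%, 78%, 98% and 100% of genes changed by 0.3, 0.6, 1 and 2 (log2) were found, and 4.44% of calls were false.

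The genes named are the 12 with the smallest p and the 8 with the largest change (mean of at least 1 CPM) each way, clone-named models left out, 5 each way for each difference between age changes, Htt, and up to 6 members of a list with the smallest p. Drd2, Adora2a, Pvalb, Vip and some other list members, chiefly those given as not called, were chosen after values were seen. Some genes that the rule names are not reported here.

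The alternatives were DESeq2 1.42.0, its size factors, limma 3.58.1 on log2(FPKM + 0.1) or log2(FPKM + 1), no filter, no TMM, no sex term, a replicate block, the L token, wider fits, single sexes and subsets of libraries. The 168 pairs of libraries compared within groups differed beyond sampling noise, and their lowest ratio of chi-square to degrees of freedom was 3.76. Gene positions are from GENCODE M21 and promoter windows from RefSeq (both GRCm38). Tables and figures used Python 3.11.15, pandas 2.3.3, numpy 2.4.6 and matplotlib 3.10.9.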

Additional observations from a re-analysis of the deposited data

Results flagged for a closer look

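In 24 of 282 groups of 8 libraries, 1 library stood far from the others of its age by Dixon's ratio of the gap to the range, where chance gives about 1 in 20 groups. Of these, 15 were at 10 months and 9 at 2 months.

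The library of 10-month male 2 was the highest for Lamp5 (251 CPM), Ctss (86.0 CPM) and Ctsb (580.5 CPM), and the lowest for Sv2c (5.11 CPM), Mki67 (0.776 CPM), Slc4a4 (153 CPM) and Htt (147 CPM). It also had the highest choroid plexus sum and the lowest correlation with its age. Male 4 at 10 months was the highest for Dpysl3 (41.2 CPM) and Col3a1 (2.49 CPM) and the lowest for H2-T22 (27.2 CPM).

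Female 3 at 10 months was the highest for H2-Q6 (5.78 CPM) and H2-Q7 (9.45 CPM), and for the olfactory bulb sum (20.9 CPM). At the same age female 1 was the highest for Omp (1.98 CPM) and female 4 for Eomes (0.208 CPM).

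At 2 months, female 2 was the highest for Drd2 (9.02 CPM), Gbx1 (2.70 CPM) and the striatal sum (1272 CPM), and female 1 for Alox8 (4.40 CPM), Tet1 (19.9 CPM) and Uhrf1 (1.68 CPM). The lowest 2-month values that stood apart were those of Grik2 in female 3 (62.1 CPM), Ifi27 in male 1 (16.7 CPM) and Xaf1 in male 2 (4.33 CPM).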

How the results depend on the processing

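The count of called genes in Q20, 2969 as reported, moved by more than 1.5 times in 7 alternatives. It was 1700 with a term for the L token, 1510 in females, 902 in males and 541 in the 4 libraries with a median correlation of at least 0.99 with the other 15. It was 1915 without the 4 10-month libraries of highest choroid plexus sum, an alternative chosen after seeing the data. With other ages in its place, also chosen after seeing the data, it was 5655 for 6 over 2 months and 8148 for 10 over 6 months. The single sexes and the subsets hold fewer libraries, and for the other alternatives the cause was not tested. Leaving out 1 library at a time gave 2563 to 3182 calls. Without TMM, 37.3% of calls were higher, against 44.7% with it, which is 1072 higher and 1804 lower, and none of the list medians given above changed sign with library totals alone or with the size factors of DESeq2.

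The WT count of 1561 became 1009 with the replicate block and 21 in the libraries of high correlation (5 at 10 months and 1 at 2 months, which is assumed to vary like the others), and 1195 to 2153 with 1 library left out. For Q20 minus WT, 0 to 0 genes were called with 1 library left out. For females minus males, DESeq2 called 2 genes and leaving out 1 library 0 to 1. For these differences the alternative of highly correlated libraries gave no value: in the fit with WT it left no library in 3 of 4 groups, and between the sexes 1 library per age and sex.

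With the replicate block the Q20 count was 2175 (866 higher, 1309 lower). Same-numbered libraries share only a number: of 8 pairs, 0 had a correlation of deviations over 0.1 (-0.18 to 0.06), and 1 of 16 libraries correlated best with its own number. The block took the call from 10 of the 134 called named genes, 9 of them from choroid plexus or its surroundings (Ttr, Folr1, Cldn2, Kcne2, Slc4a5, F5, Mfrp, Kl, Enpp2) and Isg15.

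Of the 134, 70 passed in every alternative run. In the 4 highly correlated libraries, the log2 change was reversed for Ttr (-0.87), Folr1 (-0.30), Cldn2 (-1.35), Kcne2 (-0.64), Slc4a5 (-0.80), F5 (-0.11), Mfrp (-0.094) and Kl (-0.36). Genes under about 1 CPM rest on few counts, and intervals of these libraries cover no error of tissue dissection.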
